A study of Homo sapiens and Mus musculus with 24 samples.

Results

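The genes described here are the mouse genes for Wnt ligands, their Frizzled receptors and the secreted proteins that tune them, measured by RNA-seq in cancer-associated fibroblasts, the activated fibroblasts that surround a tumour. They were chosen by name: every symbol made of Wnt, Sfrp, Dkk, Rspo or Fzd followed by a number and, where present, a letter, plus Wif1 and Frzb. The rule found 43 of the 39089 genes in the fibroblast table. These were 19 Wnt ligands, 10 Frizzled receptors, 4 R-spondins, 6 secreted Wnt binders (Sfrp1, Sfrp2, Sfrp4, Sfrp5, Frzb and Wif1) and 4 Dickkopfs. The rule uses names only and no measured value.

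Wnt ligands are lipid-modified secreted proteins that bind Frizzled receptors on the cell surface. With the co-receptors Lrp5 and Lrp6 they stop the breakdown of beta-catenin, which then switches on target genes together with Tcf and Lef factors. Other ligands, such as Wnt5a, act mostly without beta-catenin, through Ror receptors and the planar cell polarity branch. R-spondins keep Frizzled on the cell surface and so strengthen the signal, secreted Frizzled-related proteins bind the ligand outside the cell, and most Dickkopfs block Lrp5 and Lrp6. In the prostate, stromal cells are a known source of Wnt ligands and of their secreted regulators.

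The series compared prostate cancer-associated fibroblasts under different treatments, and LNCaP cells, a human prostate cancer line, in a separate table that was not used here. All fibroblasts came from mice whose labelled genotype includes Trp53PC-/-, while the fibroblasts themselves are labelled WT. The labels do not spell out PC. Of the 24 libraries, 10 were compared, 2 for each of 5 groups. In 3 groups the fibroblasts received enzalutamide, an androgen receptor antagonist, at 1 µM, TGF-beta1, a cytokine that activates fibroblasts, at 5 ng/ml, or both agents, and were collected on day 7. A further group was isolated from mice labelled ADT, received nothing and was collected on day 0. The comparison group received DMSO, the solvent, and was collected on day 7. The fibroblasts of ADT mice and the DMSO fibroblasts therefore differ in the mouse, in the solvent and in the time in culture, and these cannot be told apart. The labels state 2 biological replicates per condition without saying whether they came from separate animals, so p-values measure the spread between these libraries.

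Levels are the deposited TPM, transcript counts scaled to a fixed total per library, which are also scaled for gene length and can be compared between genes. Reads recovered from the steps of these values came to between 17545019 and 21083403 per library. The libraries labelled as given both agents resembled those from ADT mice. The mean chi-square per gene, which is 1 where 2 libraries differ by counting noise alone, was 1.81 to 2.55 between them, 1.39 to 1.67 between libraries of 1 group and 19.3 to 260 between all other groups. The libraries with both agents are therefore called by their label below, and each of their differences from DMSO stands beside that of the ADT group, which does not rest on them. In both DMSO columns, at least 47 genes were listed at 0.3 of a whole number of reads and the columns added up to 986375 and 986203 TPM. None of the 43 genes was among the 47. Reads were recovered for 32 of the 43, and the others, like genes with few DMSO reads, could not be checked for this. Markers of the labelled cell type were abundant: 10 fibroblast genes summed to 13520.0 to 18310.0 TPM per library. Markers of other cells were also present. The sum of 10 leukocyte markers was 24.3 to 29.5 TPM in the libraries of both agents and ADT, against 89.1 to 109.6 TPM in the other groups, with Cd3e at 0 in all of them. The sum of 10 muscle and pericyte markers was 737 to 752 TPM in the libraries of both agents and ADT, against 3207 to 3881 TPM in the others. Epithelial markers summed to 25.8 to 30.2 TPM in the libraries of both agents and ADT, against 9.48 to 20.2 TPM in the others, with Pbsn at 0 throughout. Endothelial markers summed to 45.7 to 49.3 TPM in the libraries of both agents and ADT, 112.5 to 145.5 TPM under either agent alone and 60.1 to 61.1 TPM as deposited for DMSO. Eng, one of them, was among the 47 genes, and dividing it by 0.3 brings the DMSO sums to 140.7 and 142.1 TPM. Of these, Eng alone makes up 115.3 and 115.7 TPM, so the DMSO sum rests mostly on this gene. Emcn, an endothelial marker, was at 0 with both agents and in ADT fibroblasts, against 9.64 and 10.8 TPM under DMSO. The part of these marker levels in the results below was not tested. In such bulk samples, fewer cells of a type and less RNA per cell cannot be told apart.

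Of the 43 genes, 27 reached 1 TPM in at least 2 of the 10 libraries and entered the test, a limma fit on log2(TPM + 1) across 14828 genes with Benjamini-Hochberg adjustment in each comparison. A difference counted as called when its adjusted p was under 0.05. Wnt1 passed this limit through its TGF-beta1 libraries only, Wnt7b, Rspo1 and Sfrp2 through those of both agents and ADT, Fzd9 through those of TGF-beta1 and ADT, and Rspo2 through those of enzalutamide and DMSO. Wnt10b passed through those of TGF-beta1, both agents and ADT, and Wnt2 and Wnt4 through those of enzalutamide, TGF-beta1 and DMSO. Such genes had to differ from the groups under the limit, so the counts below are no support for a change of the family. Their p-values for those differences are likewise given as a description. The 16 that did not enter were Dkk1, Dkk4, Fzd10, Rspo4, Sfrp5, Wif1 and the ligands Wnt2b, Wnt3, Wnt3a, Wnt6, Wnt7a, Wnt8a, Wnt8b, Wnt9b, Wnt10a and Wnt16. Dkk1 and Wnt9b were listed at 0 in all 10 libraries. Wif1, like Dkk1 a well-known Wnt antagonist, reached 0.15 TPM at most. Wnt2b came closest to entering, with 0.892 and 1.08 TPM under TGF-beta1, against 0.9 and 0.626 TPM under DMSO. Fold changes on the log2(TPM + 1) scale understate the change of genes with low levels, and folds named as such are ratios of mean TPM.

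The summed levels of the 5 classes differed between groups in different ways. The ligand genes summed to 54.4 and 55.7 TPM under enzalutamide, 168 and 169 TPM under TGF-beta1, 68.6 and 71.4 TPM with both agents as labelled and 69.1 and 67.9 TPM in ADT fibroblasts, against 57.2 and 57.2 TPM under DMSO. The TGF-beta1 libraries stood far above all others, and the enzalutamide libraries were slightly below DMSO. Frizzled genes summed to 309.98 and 312 TPM under enzalutamide, 246 and 253 TPM under TGF-beta1, 200.4 and 200.5 TPM with both agents and 203 and 201 TPM in ADT fibroblasts, against 389 and 395 TPM under DMSO. R-spondins summed to 19.7 and 17.5 TPM under enzalutamide, 6.44 and 6.56 TPM under TGF-beta1, 14.5 and 15.96 TPM with both agents and 14.4 and 17.4 TPM in ADT fibroblasts, against 52.9 and 50.2 TPM under DMSO. In both classes every DMSO library was above every other library, and the lowest R-spondin sums were those under TGF-beta1. Secreted Wnt binders summed to 126 and 131 TPM under enzalutamide, 67.8 and 65.5 TPM under TGF-beta1, 8.13 and 8.27 TPM with both agents and 8.45 and 7.20 TPM in ADT fibroblasts, against 215 and 219 TPM under DMSO. Dickkopfs summed to 103 and 99.4 TPM under enzalutamide, 66.3 and 66.7 TPM under TGF-beta1, 67.8 and 63.2 TPM with both agents and 67.8 and 62.1 TPM in ADT fibroblasts, against 145 and 141 TPM under DMSO. The sums of secreted binders and of Dickkopfs were thus highest under DMSO, where Sfrp1 alone made up 93.5% of the binder total and Dkk3 62.3% of the Dickkopf total. Not every gene of these classes followed its sum, and Sfrp2 went the other way, as given below. Each sum is carried by a few genes and was not itself tested.

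**Figure D1:**
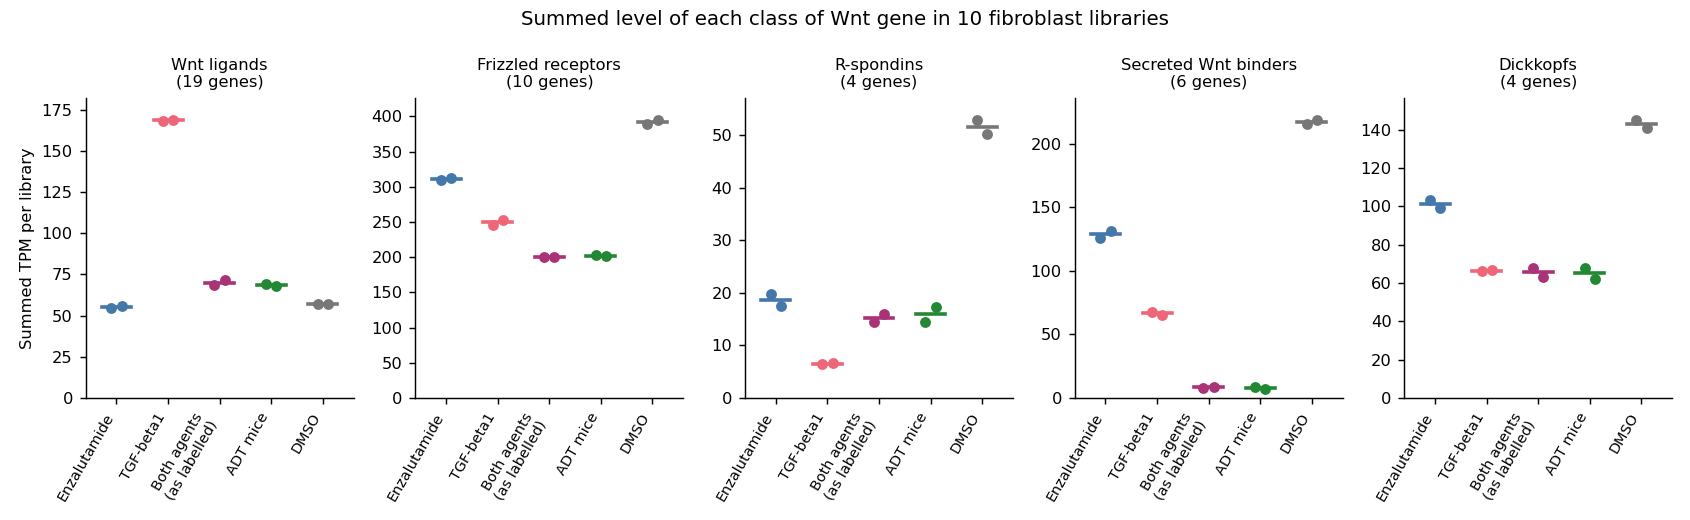
Summed TPM of the genes of each class (y axis) in each library, with 2 points per group and a line at their mean; groups run along the x axis. Ligand totals were near 168 TPM under TGF-beta1 and 57.2 TPM under DMSO, while the other 4 classes were highest in the DMSO libraries.

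Counted over the 27 tested genes, enzalutamide raised 2 (Wnt11 and Wnt2), where 9.83% of all 14828 genes rose, and lowered 10 (Wnt5a, Fzd1, Fzd2, Fzd4, Rspo2, Rspo3, Frzb, Sfrp1, Dkk2 and Dkk3), where 15.2% fell and 25% were called in either direction. TGF-beta1 raised 8 (Wnt1, Wnt2, Wnt5a, Wnt9a, Wnt10b, Wnt11, Fzd6 and Fzd9), Wnt1 being the gene that entered through this group alone, where 19% of all genes rose. It lowered 12 (Wnt5b, Fzd1, Fzd4, Fzd5, Fzd7, Rspo2, Rspo3, Frzb, Sfrp1, Sfrp4, Dkk2 and Dkk3), where 34.6% fell and 53.6% were called in either direction. Of all genes under TGF-beta1, 2816 were higher and 5137 lower on the deposited scale, against 3938 higher and 3853 lower after median-ratio scaling, where 10 of the 27 were higher and 11 lower. The libraries with both agents were higher in 7 and lower in 17 of the 27, with 31.5% of all genes higher, 42.7% lower and 74.2% called. ADT fibroblasts were higher in 8 and lower in 17, with 31.5% of all genes higher, 43.3% lower and 74.8% called. Median-ratio scaling turned this balance over all genes as well. With both agents 4672 genes were higher and 6335 lower as deposited, against 5607 higher and 5363 lower after scaling, where 7 of the 27 were higher and 14 lower. In ADT fibroblasts 4668 were higher and 6423 lower as deposited, against 5684 higher and 5373 lower after scaling, where 8 of the 27 were higher and 14 lower. The number of called genes in the last 2 comparisons therefore says little about Wnt genes in particular, since about 3 in 4 genes were called there. With a called log2 change of 1 or more, the counts were 3 of 27 with enzalutamide (1.65% of all genes), 13 with TGF-beta1 (8.16%), 16 with both agents (22.7%) and 15 in ADT fibroblasts (23.1%). In every called difference of these 4 comparisons and of those below between 2 groups, the libraries of the groups did not overlap. The same held for all 288 called differences of genes in the pathway lists below. It was not counted over all genes and is therefore no result about the Wnt genes. The median log2 change of the 27 genes was -0.15 with enzalutamide, -0.19 with TGF-beta1, -0.88 with both agents and -0.82 in ADT fibroblasts. Over all tested genes it was -0.01, -0.10, -0.13 and -0.13 in the same order, and median-ratio scaling brought each of these within 0.01 of 0. All 4 comparisons share the DMSO libraries, so their values are not independent. The genes that entered the test are those with the higher levels, which makes these counts a description of them and not of all 43.

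**Figure D2:**
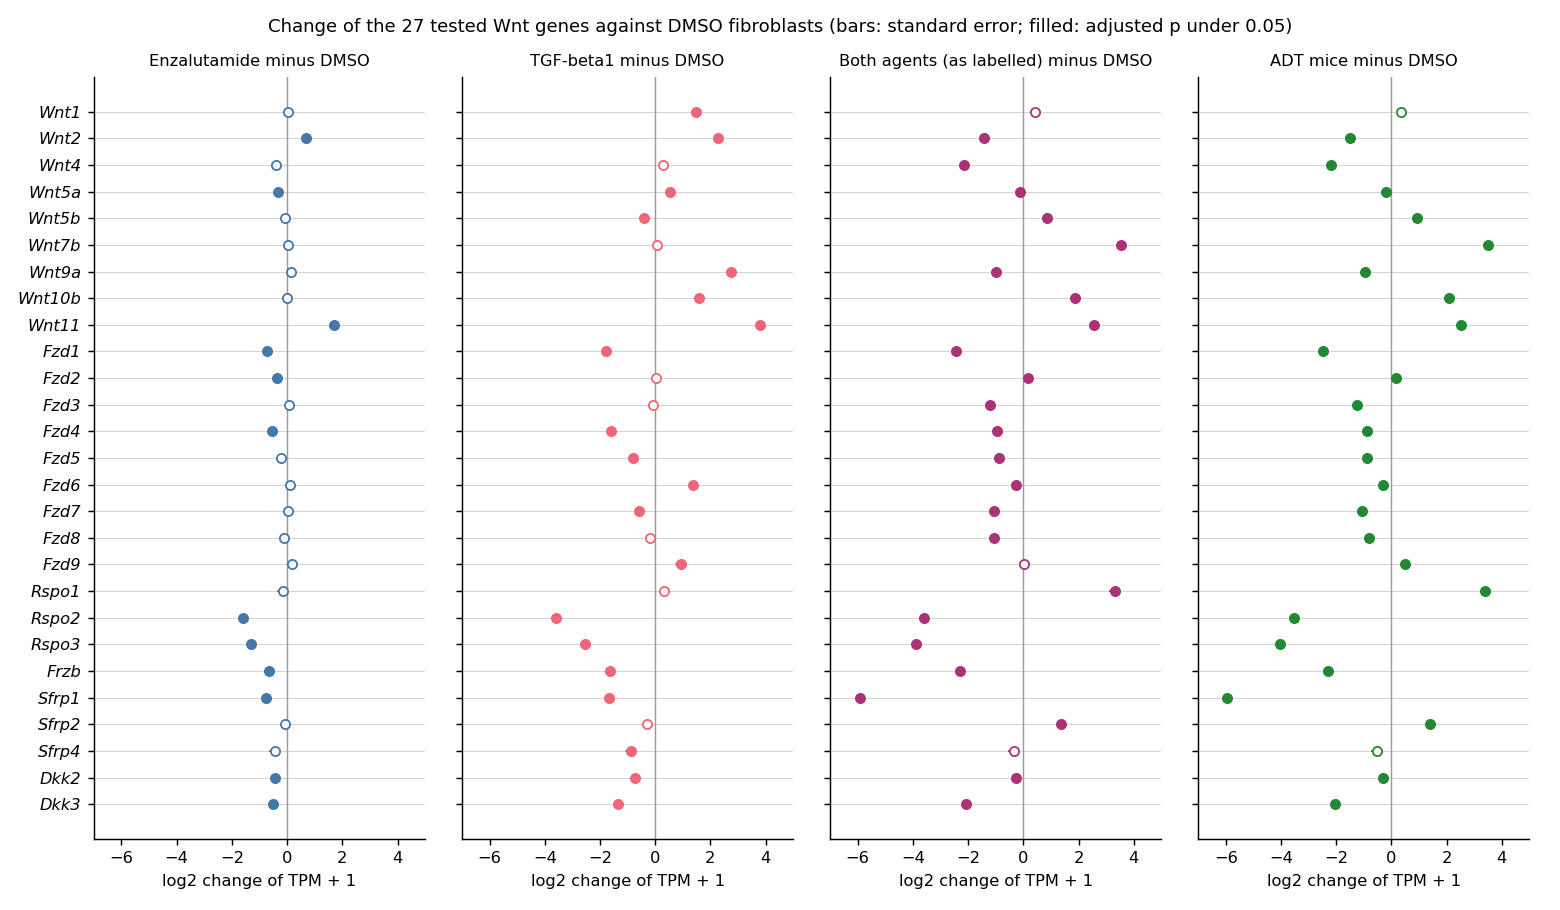
Difference in log2(TPM + 1) from DMSO fibroblasts (x axis) for the 27 tested genes (rows, by class) in 4 comparisons, with bars for the standard error from limma and filled points where the adjusted p was under 0.05. Fzd1, Rspo2, Rspo3, Frzb, Sfrp1, Dkk2 and Dkk3 lie left of 0 in all 4 panels, and the panels of both agents as labelled and of ADT mice are nearly the same.

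Wnt5a, the best-known ligand acting without beta-catenin, was the main ligand gene under DMSO, with 68.3% of the ligand total. It had 57.7 and 57.9 TPM under TGF-beta1 and 29.8 and 31.6 TPM under enzalutamide, against 38.3 and 39.9 TPM under DMSO. Wnt5a therefore rose with TGF-beta1 (log2 0.55, SE 0.043, adjusted p = 1.5e-05) and fell with enzalutamide (log2 -0.34, SE 0.043, adjusted p = 0.00088), both in all libraries. Its values were 35.1 and 36.1 TPM with both agents and 33.1 and 34.5 TPM in ADT fibroblasts, close to the DMSO level. The small differences from DMSO there (log2 -0.13 and -0.20, adjusted p = 0.022 and 0.0026 in limma) were lost when libraries were scaled by the median ratio of their genes, with log2 0.02 (adjusted p = 0.624) and -0.04 (adjusted p = 0.374). The call with both agents was also lost without DMSO replicate 2 (log2 -0.10) and without replicate 1 of the both-agents libraries (log2 -0.11).

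Wnt9a, a ligand known mainly for joint and limb development, showed the largest rise in TPM with TGF-beta1 among the ligands. It had 57.6 and 58.6 TPM under TGF-beta1, against 8.11 and 7.39 TPM under DMSO, and so matched the level of Wnt5a there (7.50-fold higher, log2 2.76, SE 0.0835, adjusted p = 7.2e-08). With enzalutamide alone it had 8.51 and 8.85 TPM and did not pass the test (log2 0.15, adjusted p = 0.25). In the other direction, it had 3.67 and 3.10 TPM with both agents and 3.67 and 3.30 TPM in ADT fibroblasts, below every DMSO library. Both falls passed the test (log2 -0.998 and -0.96, adjusted p = 9.5e-06 and 1.2e-05).

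Wnt11, a relative of Wnt5a in beta-catenin-independent signalling, was the ligand that rose in all 4 groups. It had 5.96 and 4.65 TPM under enzalutamide, 26.2 and 25.3 TPM under TGF-beta1, 9.76 and 11.1 TPM with both agents and 10.2 and 9.85 TPM in ADT fibroblasts, against 1.01 and 0.879 TPM under DMSO. The DMSO libraries held the lowest values and the TGF-beta1 libraries the highest. Mean TPM was 5.61-fold higher with enzalutamide (log2 1.69, SE 0.11, adjusted p = 2.1e-05) and 27.2-fold higher with TGF-beta1 (log2 3.78, SE 0.11, adjusted p = 5.3e-08). In ADT fibroblasts it was 10.6-fold higher (log2 2.51, SE 0.11, adjusted p = 1.6e-07).

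Wnt2, a ligand of lung and placental development that acts through beta-catenin, rose with each agent alone and was nearly silent in the other 2 groups. It had 4.11 and 4.03 TPM under enzalutamide and 14.3 and 14.1 TPM under TGF-beta1, against 2.48 and 1.86 TPM under DMSO. Both differences were called (log2 2.27, SE 0.13, adjusted p = 2.9e-06 for TGF-beta1, and log2 0.68, SE 0.13, adjusted p = 0.0074 for enzalutamide). The enzalutamide call was lost with a pseudocount of 0.1 (log2 0.89, adjusted p = 0.121). With both agents Wnt2 had 0.249 and 0.128 TPM, and in ADT fibroblasts 0.205 and 0.0495 TPM, all below the DMSO libraries (log2 -1.41 and -1.49). These falls are given as a description, because Wnt2 entered the test through its enzalutamide, TGF-beta1 and DMSO libraries only. Wnt4, a ligand of kidney and reproductive tract development, was likewise lost with both agents and in ADT fibroblasts. It had 0 and 0.0383 TPM with both agents and 0 and 0 TPM in ADT fibroblasts, against 3.64 and 3.42 TPM under DMSO. The ADT libraries together held 0 Wnt4 reads and the DMSO libraries 167, so that the level was at least 31.2-fold lower in ADT fibroblasts, taking 3 reads per library as the limit of detection (log2 -2.18, SE 0.14). This fall is likewise given as a description, because Wnt4 entered the test through the same groups as Wnt2. Under either agent alone Wnt4 did not pass the test, with 2.17 and 2.71 TPM under enzalutamide and 5.04 and 4.11 TPM under TGF-beta1.

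Wnt7b, a ligand of lung, kidney and bone development, behaved as the reverse of Wnt4. It had 10.1 and 10.9 TPM with both agents and 10.5 and 10.1 TPM in ADT fibroblasts, against 0 TPM in both DMSO libraries. These are 673 reads with both agents and 630 in ADT fibroblasts, against 0 under DMSO. With 3 reads per library as the limit, the level was at least 95.2-fold higher with both agents and at least 93.2-fold higher in ADT fibroblasts. This is given as a description, because the libraries of both agents and ADT alone brought Wnt7b into the test. Enzalutamide alone gave 0.0368 and 0 TPM and TGF-beta1 alone 0.038 and 0.0379 TPM, no more than 1 read in a library. Wnt7b was thereby the second ligand gene by level in ADT fibroblasts, with 15.03% of the ligand total.

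Among the ligands of lower level, Wnt10b, which restrains fat cell formation, had 3.89 and 4.42 TPM under TGF-beta1, 5.34 and 5.21 TPM with both agents and 7.19 and 5.46 TPM in ADT fibroblasts, against 0.495 and 0.96 TPM under DMSO. All 3 rises were called (log2 1.59, 1.87 and 2.09), while enzalutamide gave 0.86 and 0.549 TPM. The rises are given as a description, because the libraries of TGF-beta1, both agents and ADT alone brought Wnt10b into the test. Wnt1, the founding beta-catenin ligand, had 1.56 and 2.04 TPM under TGF-beta1, against 0 TPM in both DMSO libraries. That is 51 reads against 0, at least 8.76-fold higher at 3 reads per library, and is given as a description because these libraries alone brought Wnt1 into the test. Its low values with both agents (0.438 and 0.247 TPM) and in ADT fibroblasts (0.186 and 0.359 TPM) did not pass the test (log2 0.42 and 0.34, adjusted p = 0.06 and 0.11 in limma). They did with a pseudocount of 0.1 (adjusted p = 0.0117 and 0.0207) and without the filter (adjusted p = 0.0224 and 0.0489), and the difference with both agents also in a fit of the compared groups alone (adjusted p = 0.0375). Wnt5b, a close relative of Wnt5a, had 3.14 and 3.84 TPM with both agents and 3.44 and 3.86 TPM in ADT fibroblasts, against 1.56 and 1.35 TPM under DMSO, and both rises were called (log2 0.87 and 0.92, adjusted p = 0.00041 and 0.00028). Under TGF-beta1 it was lower, at 0.856 and 0.853 TPM (log2 -0.40, SE 0.13, adjusted p = 0.033), a call that was lost without any 1 of the DMSO or TGF-beta1 libraries, with log2 between -0.47 and -0.34. The call was also lost in limma after median-ratio scaling (adjusted p = 0.0594), without the filter (adjusted p = 0.0611) and without the ADT libraries (adjusted p = 0.0501). The ligand genes with the highest levels thus differed by group: Wnt5a and Wnt9a under TGF-beta1, Wnt5a, Wnt7b and Wnt11 in ADT fibroblasts, and Wnt5a alone under DMSO.

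**Figure D3:**
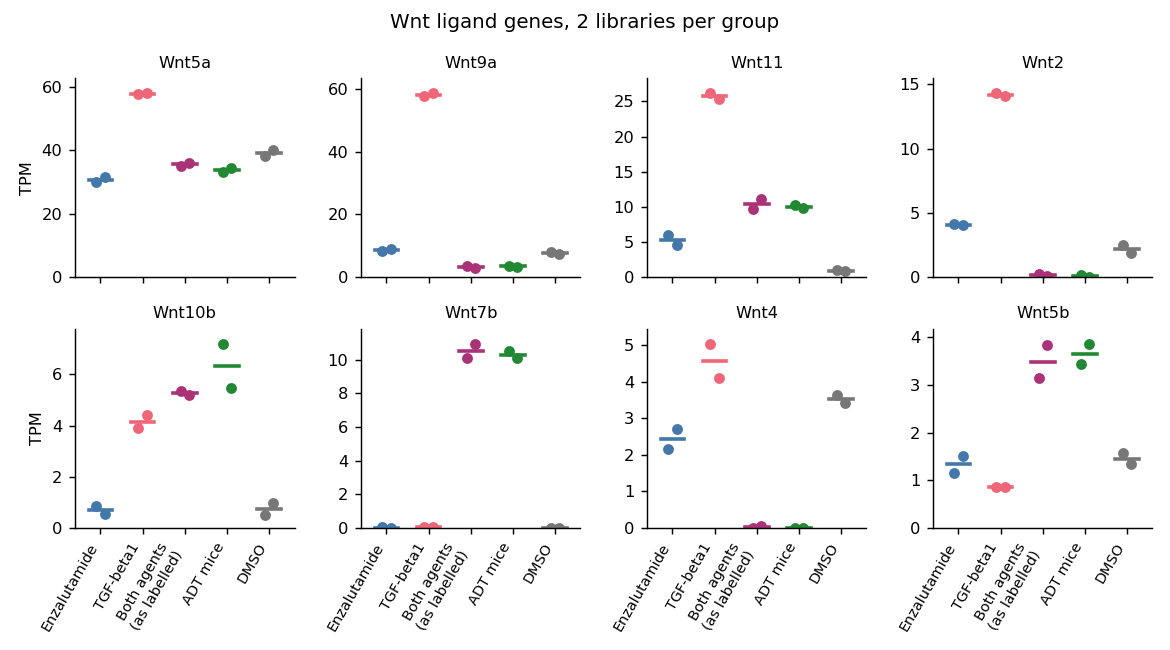
TPM (y axis) of 8 Wnt ligand genes in each library, with 2 points per group along the x axis and a line at their mean; each panel has its own scale from 0. Wnt9a, Wnt11 and Wnt2 peaked under TGF-beta1, Wnt7b was near 10 TPM only with both agents as labelled and in ADT fibroblasts, and Wnt4 was near 0 TPM in those same 4 libraries.

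Frizzled receptors carry the signal into the cell, and Fzd1, Fzd2 and Fzd7 form 1 subfamily that made up most of the Frizzled total. Fzd1 led under DMSO with 37.03% of it. It had 89.2 and 86.8 TPM under enzalutamide, 40.1 and 43.1 TPM under TGF-beta1, 26.9 and 24.95 TPM with both agents and 25.1 and 24.95 TPM in ADT fibroblasts, against 143 and 147 TPM under DMSO. The libraries of no group overlapped with DMSO, and Fzd1 fell in all 4 comparisons. Mean TPM was 1.65-fold lower with enzalutamide (log2 -0.72, SE 0.0481, adjusted p = 2.6e-05), 3.49-fold lower with TGF-beta1 (log2 -1.78, SE 0.0481, adjusted p = 3.8e-08) and 5.80-fold lower in ADT fibroblasts (log2 -2.49, SE 0.0481, adjusted p = 1.8e-09).

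Its relative Fzd7 had 108 and 111 TPM under enzalutamide, 68.97 and 71.7 TPM under TGF-beta1, 49.1 and 50.6 TPM with both agents and 50.4 and 50.5 TPM in ADT fibroblasts, against 104 and 108 TPM under DMSO. It fell in the last 3 (log2 -0.59, -1.08 and -1.06, adjusted p at most 2.5e-06) and did not pass the test with enzalutamide (adjusted p = 0.42). Fzd2, in contrast, had 98.3 and 98.7 TPM with both agents and 99.8 and 97.1 TPM in ADT fibroblasts, against 89.1 and 87.7 TPM under DMSO, a small rise (log2 0.15 and 0.15, adjusted p = 0.0017 and 0.0018). Fzd2 fell with enzalutamide, at 66.5 and 69.6 TPM (log2 -0.37, SE 0.0302, adjusted p = 7.2e-05). With TGF-beta1 it had 90.2 and 90.3 TPM and passed the test only after median-ratio scaling (log2 0.14, adjusted p = 0.00679). The leading Frizzled gene was therefore Fzd7 under enzalutamide, Fzd2 under TGF-beta1, with both agents and in ADT fibroblasts, and Fzd1 under DMSO. In ADT fibroblasts Fzd2 held 48.7% of the Frizzled total, against 22.6% under DMSO.

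Fzd6, a receptor of the planar polarity subfamily it shares with Fzd3, had the largest called log2 rise with TGF-beta1 among the Frizzled genes, although the ratio of mean TPM was larger for the low gene Fzd9, at 3.90-fold higher. Fzd6 had 17.2 and 17.6 TPM under TGF-beta1, against 6.47 and 5.73 TPM under DMSO (2.85-fold higher, log2 1.38, SE 0.0758, adjusted p = 2.1e-06). With enzalutamide it had 6.37 and 6.74 TPM, which did not pass the test. With both agents it had 4.72 and 5.10 TPM and in ADT fibroblasts 4.82 and 4.79 TPM, slightly below DMSO. Those falls (log2 -0.26 and -0.29) were lost without DMSO replicate 1 (log2 -0.19 and -0.21) and under median-ratio scaling (log2 -0.13 and -0.15), and the fall with both agents also without replicate 1 of those libraries (log2 -0.22). Fzd3 had 1.28 and 1.37 TPM with both agents and 1.23 and 1.29 TPM in ADT fibroblasts, against 4.41 and 4.37 TPM under DMSO, and fell in both (log2 -1.21 and -1.25). Under either agent alone it had 3.95 to 4.64 TPM and did not pass the test.

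The other Frizzled genes were at lower levels. Fzd4, which also receives the ligand norrin, had 7.50 and 7.66 TPM under enzalutamide, 3.64 and 2.68 TPM under TGF-beta1, 5.25 and 5.56 TPM with both agents and 5.57 and 6.08 TPM in ADT fibroblasts, against 11.4 and 11.7 TPM under DMSO. It fell in all 4 comparisons and was lowest under TGF-beta1 (log2 -1.60, SE 0.11, adjusted p = 7.2e-06). Fzd5 and Fzd8, which form a further subfamily, fell to 6.28 and 7.18 TPM and 8.63 and 8.40 TPM in ADT fibroblasts, against 12.4 and 14.5 TPM and 16.97 and 14.8 TPM under DMSO (log2 -0.90 and -0.82). Fzd5 fell with TGF-beta1 too (log2 -0.82, adjusted p = 0.00011), and Fzd8 did not pass the test there (adjusted p = 0.077) except without DMSO replicate 2 (log2 -0.28, adjusted p = 0.0301). Fzd9 had 1.35 and 2.22 TPM under TGF-beta1, against 0.508 and 0.408 TPM under DMSO (log2 0.92, SE 0.18). This rise is given as a description, because only the TGF-beta1 and ADT libraries brought Fzd9 into the test. Its call in ADT fibroblasts (log2 0.50) was lost without any 1 of the ADT or DMSO libraries, with log2 between 0.41 and 0.58. Fzd10 did not exceed 0.173 TPM.

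R-spondins bind Lgr receptors and draw away the ligases that remove Frizzled from the cell surface. Rspo3 and Rspo2 supplied nearly all R-spondin transcripts under DMSO. Rspo3 had 13.8 and 13.5 TPM under enzalutamide, 5.11 and 5.37 TPM under TGF-beta1, 1.52 and 1.34 TPM with both agents and 1.28 and 1.07 TPM in ADT fibroblasts, against 36.3 and 33.8 TPM under DMSO. Rspo2 had 5.37 and 3.90 TPM under enzalutamide, 0.526 and 0.323 TPM under TGF-beta1, 0.439 and 0.353 TPM with both agents and 0.425 and 0.514 TPM in ADT fibroblasts, against 16.4 and 15.8 TPM under DMSO. Both genes were lower than DMSO in every library of every other group, and both were among the 3 genes of the 27 with a called log2 change of 1 or more under enzalutamide. Mean TPM of Rspo3 was 2.57-fold lower with enzalutamide (log2 -1.30, SE 0.0824, adjusted p = 2.0e-05), 6.69-fold lower with TGF-beta1 (log2 -2.53, SE 0.0824, adjusted p = 1.1e-07) and 29.8-fold lower in ADT fibroblasts (log2 -4.05, SE 0.0824, adjusted p = 2.3e-09). Mean TPM of Rspo2 was 3.47-fold lower with enzalutamide (log2 -1.61, SE 0.15, adjusted p = 0.00015 in limma). It was 37.9-fold lower with TGF-beta1 (log2 -3.59, SE 0.15) and 34.3-fold lower in ADT fibroblasts (log2 -3.54, SE 0.15). These last falls are given as a description, because Rspo2 entered the test through its enzalutamide and DMSO libraries only. Rspo1 ran the other way. It had 12.5 and 14.2 TPM with both agents and 12.6 and 15.7 TPM in ADT fibroblasts, against 0.246 and 0.645 TPM under DMSO. Mean TPM was 29.9-fold and 31.8-fold higher (log2 3.32 and 3.40). These rises are given as a description, because the libraries of both agents and ADT alone brought Rspo1 into the test. Rspo1 did not pass the test with enzalutamide (0.523 and 0.0911 TPM) or with TGF-beta1 (0.809 and 0.806 TPM). Rspo1 thus made up 89.1% of R-spondin transcripts in ADT fibroblasts and 0.864% under DMSO. Rspo4 did not exceed 0.111 TPM.

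**Figure D4:**
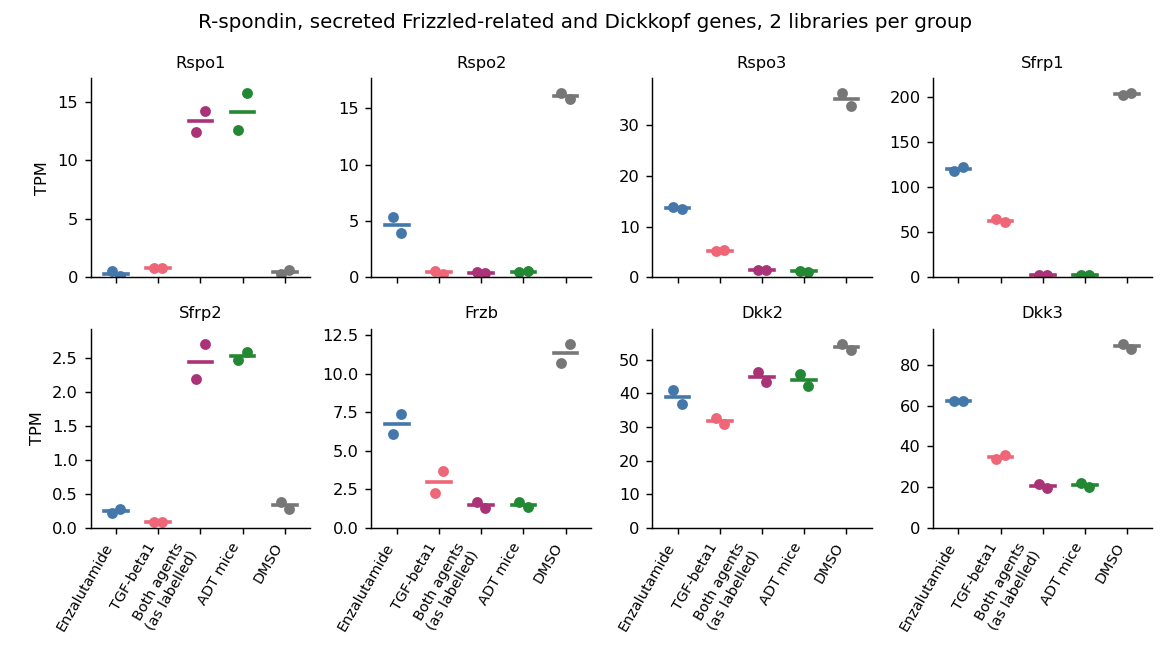
TPM (y axis) of 8 genes for R-spondins, secreted Frizzled-related proteins and Dickkopfs in each library, with 2 points per group along the x axis and a line at their mean; each panel has its own scale from 0. Rspo2, Rspo3, Sfrp1, Frzb, Dkk2 and Dkk3 were highest under DMSO, while Rspo1 and Sfrp2 were high only with both agents as labelled and in ADT fibroblasts.

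Secreted Frizzled-related proteins resemble the ligand-binding part of Frizzled and trap Wnt ligands outside the cell. Sfrp1 was the most abundant of the 43 genes under DMSO and showed the largest log2 change of the 27 tested. It had 118 and 122 TPM under enzalutamide, 64.03 and 60.97 TPM under TGF-beta1, 2.34 and 2.38 TPM with both agents and 2.42 and 2.21 TPM in ADT fibroblasts, against 202 and 204 TPM under DMSO. Below DMSO the values formed 3 steps, and the libraries of both agents and ADT shared the lowest. Mean TPM was 1.69-fold lower with enzalutamide (log2 -0.75, SE 0.0466, adjusted p = 1.8e-05), 3.24-fold lower with TGF-beta1 (log2 -1.68, SE 0.0466, adjusted p = 4.5e-08), 85.9-fold lower with both agents (log2 -5.92, SE 0.0466, adjusted p = 2.4e-11) and 87.6-fold lower in ADT fibroblasts (log2 -5.94, SE 0.0466, adjusted p = 2.5e-11).

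Frzb, also called Sfrp3 and known from cartilage, followed the same order at a lower level. It had 6.12 and 7.39 TPM under enzalutamide, 2.30 and 3.72 TPM under TGF-beta1, 1.69 and 1.30 TPM with both agents and 1.66 and 1.36 TPM in ADT fibroblasts, against 10.7 and 11.96 TPM under DMSO. It fell in all 4 comparisons (log2 -0.67, -1.64, -2.31 and -2.30), but the enzalutamide call (adjusted p = 0.03) was lost without any 1 of the enzalutamide or DMSO libraries, with log2 between -0.79 and -0.55. Sfrp2 was a minor transcript that rose where Sfrp1 was nearly gone. It had 2.18 and 2.70 TPM with both agents and 2.46 and 2.58 TPM in ADT fibroblasts, against 0.379 and 0.284 TPM under DMSO (log2 1.37 and 1.40). Its rise is given as a description, because the libraries of both agents and ADT alone brought Sfrp2 into the test. Under TGF-beta1 Sfrp2 had 0.0924 and 0.0921 TPM, a difference that passed the test only with a pseudocount of 0.1 (log2 -1.16, adjusted p = 0.0148). Sfrp4 stayed between 0.665 and 2.61 TPM. It fell with TGF-beta1 (log2 -0.87, adjusted p = 0.009), though not without TGF-beta1 replicate 2 (log2 -0.66, adjusted p = 0.0591). The total of secreted binders in ADT fibroblasts was thus a mixture, with 32.2% from Sfrp2 and 29.6% from Sfrp1.

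Dickkopfs were represented by Dkk3 and Dkk2. Dkk3 is a divergent member of the family that, unlike Dkk2, is not a typical ligand of Lrp5 and Lrp6. Dkk3 had 62.3 and 62.5 TPM under enzalutamide, 33.6 and 35.9 TPM under TGF-beta1, 21.4 and 19.8 TPM with both agents and 22.1 and 19.9 TPM in ADT fibroblasts, against 90.3 and 87.8 TPM under DMSO. Its fall was called in all 4 comparisons, with 1.43-fold lower mean TPM under enzalutamide (log2 -0.51, SE 0.0609, adjusted p = 0.00065), 2.56-fold lower under TGF-beta1 (log2 -1.33, SE 0.0609, adjusted p = 7.1e-07) and 4.23-fold lower in ADT fibroblasts (log2 -2.03, SE 0.0609, adjusted p = 1.8e-08). Dkk2 had 41.1 and 36.9 TPM under enzalutamide, 32.7 and 30.8 TPM under TGF-beta1, 46.3 and 43.4 TPM with both agents and 45.6 and 42.2 TPM in ADT fibroblasts, against 54.7 and 52.96 TPM under DMSO. Dkk2 was lowest under TGF-beta1 (log2 -0.75, adjusted p = 2.9e-05) and fell with enzalutamide (log2 -0.46, adjusted p = 0.0015). The smaller falls with both agents and in ADT fibroblasts (log2 -0.26 and -0.29) were lost under median-ratio scaling (log2 -0.10 and -0.12). In ADT fibroblasts Dkk2 was the leading Dickkopf with 67.6% of their total, against 37.7% under DMSO.

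The libraries labelled as given both agents were next set against each of the other groups. Against enzalutamide alone, 9 of the 27 were higher and 15 lower, where 31.4% of all genes were higher, 42.8% lower and 74.2% called. Against TGF-beta1 alone, 7 were higher and 16 lower, where 33.4% of all genes were higher, 38.2% lower and 71.6% called. Wnt9a showed the size of this contrast: mean TPM was 3.38 with both agents and 58.1 with TGF-beta1 alone (log2 -3.75, SE 0.0835, adjusted p = 4.0e-09). Sfrp1 likewise averaged 2.36 TPM with both agents and 62.5 TPM with TGF-beta1 alone (log2 -4.24, SE 0.0466, adjusted p = 1.1e-10). Against ADT fibroblasts, 0 of the 27 passed the test, and over all genes 2 of 14828 passed (0.0135%). Of the 27, 2 had an unadjusted p under 0.05 in limma. That share was not counted over all genes and is therefore no result about the Wnt genes. The log2 differences of the 27 genes ran from -0.46 to 0.19, and all 27 intervals at 95% lay between -0.89 and 0.68. A difference of 1 on the log2(TPM + 1) scale thus lay outside each of them. That scale understates changes of genes with low levels. Mean TPM of Fzd9 was 0.493 with both agents and 1.06 in ADT fibroblasts, 2.15-fold lower with both agents. The effect of TGF-beta1 in the presence of enzalutamide differed from its effect alone, by the interaction term, in 21 of the 27 genes, with 9 positive and 12 negative, where 30.7% of all genes were positive, 33.1% negative and 63.7% called. The labels give the groups of both agents and ADT different mice, agents and times in culture. Without the libraries labelled with both agents, the counts of called genes among the 27 stayed at 12 for enzalutamide, 20 for TGF-beta1 and 25 for ADT fibroblasts. Of all 14828 genes, 3494, 7781 and 10997 were called in that fit, in the same order.

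**Figure D5:**
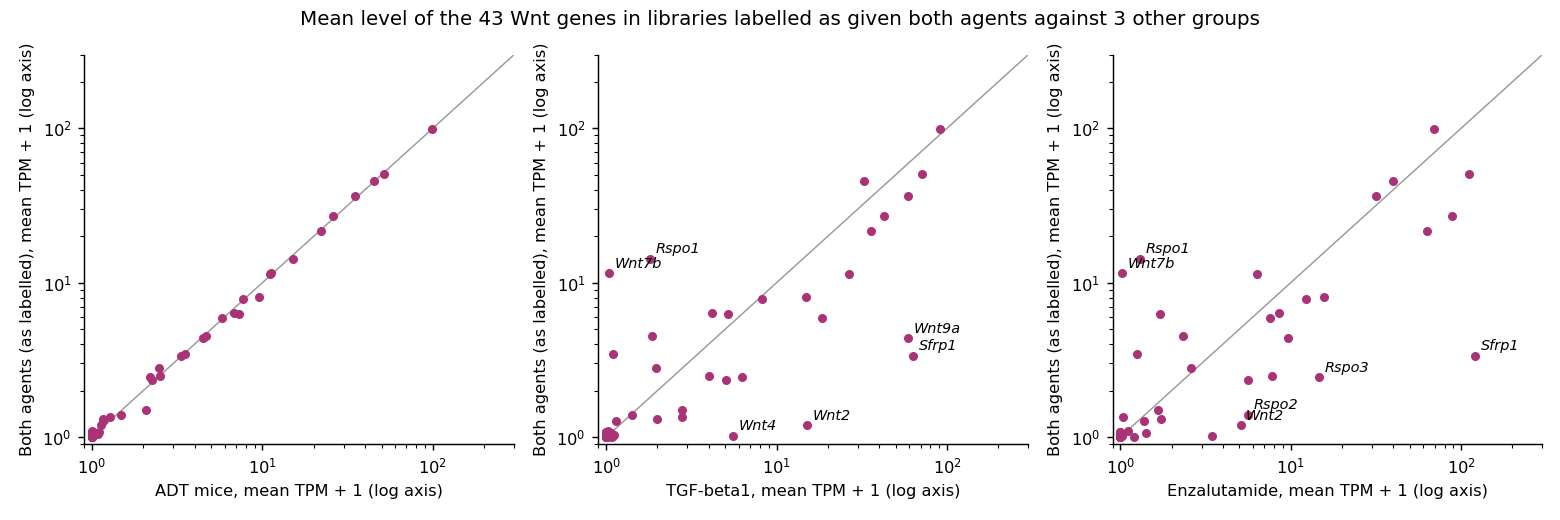
Mean TPM + 1 of the 43 genes in the libraries labelled with both agents (y axis) against ADT fibroblasts, TGF-beta1 alone and enzalutamide alone (x axes), on log axes with a line of equal level; the names mark up to 6 genes farthest from the line where they lie over 1 log2 unit from it. The points follow the line against ADT fibroblasts, while Wnt7b and Rspo1 lie above it and Sfrp1 and Wnt2 below it against either agent alone.

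The machinery around these genes was read from 4 lists. Their genes entered the test by the same limit of 1 TPM in at least 2 libraries. List genes that passed it through some groups only had to differ from the groups under the limit. The counts and percentages called are therefore no support for a change of a list. The first list holds 20 genes for ligand secretion, co-receptors and R-spondin receptors, of which 16 were tested. In this list 2 rose and 10 fell with enzalutamide, 3 rose and 10 fell with TGF-beta1, 4 rose and 11 fell with both agents, and 4 rose and 12 fell in ADT fibroblasts. These are 75%, 81.2%, 93.8% and 100% of the tested genes in that order, where 25%, 53.6%, 74.2% and 74.8% of all genes were called. Its median log2 change was -0.21, -0.41, -0.85 and -0.91 in that order, beside the medians over all genes given above. Wls, the carrier that brings Wnt ligands to the cell surface, had 210.3 and 203 TPM under enzalutamide, 153 and 158 TPM under TGF-beta1, 147 and 143 TPM with both agents and 138 and 139.7 TPM in ADT fibroblasts, against 262 and 256 TPM under DMSO. It fell in all 4 comparisons (log2 -0.33, -0.73, -0.83 and -0.89). The co-receptor Lrp6 also fell in all 4, to 27.9 and 27.96 TPM in ADT fibroblasts, against 74.00 and 74.2 TPM under DMSO (log2 -1.38, SE 0.0326, adjusted p = 5.1e-09). Lrp5 fell with TGF-beta1, with both agents and in ADT fibroblasts (log2 -0.45, -0.30 and -0.29). Trabd2b, an enzyme that inactivates Wnt ligands, fell in all 4 comparisons (log2 -0.60, -0.47, -2.48 and -2.61). Ptk7, a co-receptor without kinase activity, fell with enzalutamide, with both agents and in ADT fibroblasts (log2 -0.21, -0.47 and -0.46). With TGF-beta1 Ptk7 passed the test only after median-ratio scaling (log2 0.13).

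Ror2, a receptor for Wnt5a, had 47.4 and 45.02 TPM with both agents and 45.7 and 44.8 TPM in ADT fibroblasts, against 25.6 and 23.6 TPM under DMSO (log2 0.89 and 0.85, adjusted p = 2.2e-06 and 2.8e-06 in limma). Under enzalutamide it fell to 17.5 and 17.8 TPM (log2 -0.45). Under TGF-beta1 it had 20.6 and 22.7 TPM, a small fall (log2 -0.17, SE 0.0589, adjusted p = 0.036) that was lost in 7 of the alternatives, median-ratio scaling (log2 -0.07) among them. Ror1, the other Ror receptor, had 0.143 and 0.0944 TPM with both agents and 0.122 and 0.0784 TPM in ADT fibroblasts, against 4.33 and 4.58 TPM under DMSO, and fell in all 4 comparisons (log2 -0.81, -1.26, -2.28 and -2.31). The falls of Ror1 with both agents and in ADT fibroblasts are given as a description, because it entered the test through other groups only. Lgr4, an R-spondin receptor, had 13.9 and 13.1 TPM with both agents and 13.7 and 13.8 TPM in ADT fibroblasts, against 39.99 and 38.5 TPM under DMSO, a fall in both (log2 -1.47 and -1.45). Lgr6, a further R-spondin receptor, had 11.7 and 11.8 TPM with both agents and 12.96 and 13.2 TPM in ADT fibroblasts, against 0.974 and 1.22 TPM under DMSO, and rose in all 4 comparisons (log2 0.46, 1.31, 2.60 and 2.75). Its enzalutamide call was lost in the fit of the compared groups alone, without DMSO replicate 1 (log2 0.37) and without enzalutamide replicate 2 (log2 0.33). Ror1 and Lgr6 were chosen after their values were seen. Gpc4 and Gpc6, glypicans of the cell surface, fell to 33.02 and 32.9 TPM and 2.51 and 2.81 TPM in ADT fibroblasts, against 201 and 203 TPM and 27.1 and 27.6 TPM under DMSO (log2 -2.58 and -2.95). Cthrc1, a secreted protein known to favour Wnt signalling through Ror2, had 358 and 349 TPM under TGF-beta1, against 148 and 143 TPM under DMSO (log2 1.28, SE 0.0279, adjusted p = 1.4e-08), and 116 and 118 TPM under enzalutamide (log2 -0.31, SE 0.0279, adjusted p = 0.00012). Rises of Cthrc1 were also called with both agents, at 236 and 228 TPM, and in ADT fibroblasts, at 211 and 210 TPM.

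The second list holds 26 genes of the beta-catenin pathway inside the cell, all of them tested. With enzalutamide 3 were higher and 3 lower, with TGF-beta1 4 and 14, with both agents 7 and 15, and in ADT fibroblasts 7 and 14. These are 23.1%, 69.2%, 84.6% and 80.8% of the tested genes in that order, where 25%, 53.6%, 74.2% and 74.8% of all genes were called. In each of these comparisons, 2 of the higher genes are Ctnnb1, which encodes beta-catenin itself, and Apc, part of the complex that destroys it, and both were listed at 0.3 of whole reads in the DMSO columns. Ctnnb1 had 509 and 503 TPM under enzalutamide, 524 and 516 TPM under TGF-beta1, 534 and 533 TPM with both agents and 528 and 531 TPM in ADT fibroblasts, against 166 and 169 TPM deposited for DMSO. Divided by 0.3, the DMSO values become 554 and 562 TPM, and the log2 difference of ADT fibroblasts from DMSO becomes -0.08 in place of 1.65. For Apc the DMSO values become 42.04 and 41.9 TPM, and the same difference becomes -0.91 in place of 0.75. The deposited rises of these 2 genes against DMSO are therefore not read as changes. Among the others, Bcl9l, a co-activator that binds beta-catenin, had 32.3 and 34.6 TPM in ADT fibroblasts, against 64.4 and 66.3 TPM under DMSO (log2 -0.95, SE 0.0397, adjusted p = 1.3e-07), and Csnk1e, a kinase that acts on Dishevelled, had 65.95 and 68.3 TPM, against 38.2 and 39.1 TPM (log2 0.78, SE 0.0439, adjusted p = 7.7e-07). With TGF-beta1, Tcf7l1, a Tcf factor that mostly represses, and Tle3, a Groucho co-repressor, fell (log2 -0.76 and -0.74). Tle1, another Groucho co-repressor, fell with both agents and in ADT fibroblasts (log2 -0.84 and -0.91). Dact3, which binds Dishevelled and restrains the pathway, fell with TGF-beta1, with both agents and in ADT fibroblasts (log2 -0.37, -0.77 and -0.61). Of the Dishevelled genes themselves, Dvl2 fell with TGF-beta1 (log2 -0.39) and rose with both agents and in ADT fibroblasts (log2 0.47 and 0.38). Dvl1 rose with either agent alone (log2 0.19 with enzalutamide and 0.18 with TGF-beta1), and in ADT fibroblasts it passed the test only after median-ratio scaling (log2 0.19).

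The third list holds 17 known target genes of beta-catenin, of which 12 were tested. With enzalutamide 1 rose and 2 fell, with TGF-beta1 4 rose and 5 fell, with both agents 5 rose and 6 fell, and in ADT fibroblasts 5 rose and 6 fell, with median log2 changes of 0.01, 0.02, -0.09 and -0.16. These are 25%, 75%, 91.7% and 91.7% of the tested genes in that order, where 25%, 53.6%, 74.2% and 74.8% of all genes were called. Axin2, the most widely used target, was under 1 TPM in all 10 libraries and was not tested. It had 0.713 and 0.621 TPM under enzalutamide, 0.949 and 0.916 TPM under TGF-beta1, 0.261 and 0.214 TPM with both agents and 0.375 and 0.259 TPM in ADT fibroblasts, against 0.335 and 0.314 TPM under DMSO. Lef1, a partner and target of beta-catenin, had 1.85 and 1.36 TPM under TGF-beta1, 5.73 and 5.56 TPM with both agents and 5.08 and 5.70 TPM in ADT fibroblasts, against 0.608 and 0.379 TPM under DMSO, and rose in all 3 (log2 0.80, 2.16 and 2.10). These rises are given as a description, because the libraries of TGF-beta1, both agents and ADT alone brought Lef1 into the test. Myc, a growth regulator, had 64.8 and 61.7 TPM under enzalutamide, 79.6 and 80.6 TPM under TGF-beta1, 142 and 140.4 TPM with both agents and 145 and 145 TPM in ADT fibroblasts, against 54.4 and 50.8 TPM under DMSO, and rose in all 4 (adjusted p at most 0.0016 in limma). Tcf7, a Tcf factor, and Apcdd1, a Wnt inhibitor, rose with both agents (log2 0.89 and 0.93) and in ADT fibroblasts (log2 1.05 and 0.93), and both were chosen after their values were seen. Bambi, a decoy receptor of the TGF-beta family, fell in all 4 comparisons (log2 -0.42, -0.59, -0.55 and -0.73). Its enzalutamide call was lost in the fit of the compared groups alone, without DMSO replicate 1 (log2 -0.37) and without enzalutamide replicate 2 (log2 -0.36).

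Ccn4 and Ccn5, matricellular proteins once named Wisp1 and Wisp2, moved apart. Ccn4 had 665 and 675 TPM under TGF-beta1, against 176 and 175 TPM under DMSO (log2 1.92, SE 0.0214, adjusted p = 3.3e-10). Ccn4 was also higher with both agents and in ADT fibroblasts (log2 0.27 and 0.18) and lower with enzalutamide (log2 -0.27). Ccn5 had 1.13 and 1.07 TPM with both agents and 2.56 and 1.03 TPM in ADT fibroblasts, against 128 and 129 TPM under DMSO (log2 -5.95 and -5.59). Nkd2, a feedback inhibitor, fell to 0.388 and 0.146 TPM with both agents and 0.256 and 0.318 TPM in ADT fibroblasts, against 11.01 and 12.6 TPM under DMSO (log2 -3.34 and -3.31). The falls of Nkd2 are given as a description, because it entered the test through its enzalutamide, TGF-beta1 and DMSO libraries only. Ccnd1, a cell cycle gene, was lower under TGF-beta1, at 264 and 277 TPM, against 446 and 444 TPM under DMSO (log2 -0.72, SE 0.0303, adjusted p = 4.8e-07). Falls of Ccnd1 were also called with both agents, at 340 and 337 TPM, and in ADT fibroblasts, at 332 and 349 TPM. The list thus held genes that moved in opposite directions within the same libraries, and many of its genes also answer to other pathways.

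The last list holds 12 genes of the planar cell polarity branch, of which 9 were tested. With enzalutamide 0 rose and 2 fell, with TGF-beta1 1 rose and 7 fell, with both agents 3 rose and 5 fell, and in ADT fibroblasts 3 rose and 5 fell. These are 22.2%, 88.9%, 88.9% and 88.9% of the tested genes in that order, where 25%, 53.6%, 74.2% and 74.8% of all genes were called. Prickle1 and Daam2, cytoplasmic components of the branch, fell in all 4 comparisons. Daam2 had 2.97 and 2.86 TPM under enzalutamide, 1.10 and 1.34 TPM under TGF-beta1, 0.242 and 0.26 TPM with both agents and 0.274 and 0.278 TPM in ADT fibroblasts, against 4.33 and 4.48 TPM under DMSO. With both agents and in ADT fibroblasts the falls of Daam2 are given as a description, because it entered the test through other groups only. Its enzalutamide call (log2 -0.46, adjusted p = 0.023 in limma) was lost with a pseudocount of 0.1 (log2 -0.58) and without any 1 of the enzalutamide or DMSO libraries, with log2 between -0.49 and -0.44. Vangl2, a membrane core component, and Scrib, a scaffold of cell polarity, rose with both agents (log2 0.88 and 0.83) and in ADT fibroblasts (log2 0.84 and 0.90), and fell under TGF-beta1 (log2 -0.48 and -0.38). Prickle3, a relative of Prickle1, rose with TGF-beta1, with both agents and in ADT fibroblasts (log2 0.59, 0.66 and 0.65). Rhou, a small GTPase that Wnt signals induce, fell in the same 3 comparisons (log2 -0.21, -0.34 and -0.41), though with TGF-beta1 not after median-ratio scaling (log2 -0.10).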

How the data were processed

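Total RNA was extracted with Trizol, made into libraries with the NEBNext Ultra kit and sequenced on a HiSeq, per the labels' protocols. The submitters' processing notes name HISAT2, HTSeq, DESeq2 and the builds mm10 and hg19, without roles. The strand setting and the TPM formula were not given in the sources used here. Values are TPM for each gene and library that the authors deposited, per the file headers, and they were used unchanged. A gene's values in different libraries are whole multiples of what 1 read is worth, which gave back whole reads for 18813 genes (at most 0.0001038 reads from a whole number), including 32 of the 43 Wnt genes, and 99.9% of the TPM of every library. Read counts were used for depth, limits of detection and library comparisons only. At least 47 genes were at 0.3 of whole reads in both DMSO columns, and dividing them by 0.3 brings those columns to 999861 and 999866 TPM. A pair of further fibroblast columns, labelled Sox4, was left out because their replicate differences follow those of the ADT columns.

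Genes with 1 TPM or more in at least 2 of the 10 libraries (14828) were fitted with limma 3.58.1 in R 4.3.3 (lmFit and eBayes with a mean trend) on log2(TPM + 1) with 5 groups and no block, leaving 5 residual degrees of freedom. Tests were two-sided with Benjamini-Hochberg adjustment per comparison and a threshold of 0.05. An exact permutation test of 2 libraries against 2 cannot reach 0.05 and was not used. The fit was tested on simulated data with known changes. Limits of 3 reads cover counting error only, and intervals at 95% come from the limma fit. The settings varied were the pseudocount (0.1), the filter (left out), the scaling (each library divided by the median ratio of its genes to their geometric mean), a replicate block, fits of the compared groups alone, fits without the ADT or both-agents libraries, each library left out in turn and, chosen after seeing the data, division by 0.3.

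The rule for the Wnt genes uses names alone, but the family, the 4 pathway lists and the 5 marker lists were chosen with earlier results of these data known. All Wnt genes are accounted for. From each pathway list, up to 4 genes per comparison with the smallest adjusted p were named, plus Axin2, Lef1, Ctnnb1, Lrp5, Lrp6, Ror2 and Wls. Ror1, Lgr6, Tcf7 and Apcdd1 were added after their values were seen. No mouse sequences are printed, and the human table was not used.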

Additional observations from a re-analysis of the deposited data

Results flagged for a closer look

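The effect of TGF-beta1 in the presence of enzalutamide (both agents minus enzalutamide) was compared with its effect alone (TGF-beta1 minus DMSO) by the interaction term of the limma fit. The term passed the test for 21 of the 27 tested Wnt genes, and 63.7% of all genes passed. Every one of these values rests on the libraries labelled with both agents, which resembled the ADT libraries, and what that resemblance contributes was not tested.

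The term was negative, with a lower value after both agents than the 2 separate changes add up to, for 12 genes. Among the ligands it was -4.36 for Wnt2, -3.90 for Wnt9a, -2.92 for Wnt11, -2.05 for Wnt4, -1.11 for Wnt1 and -0.35 for Wnt5a (log2). Among the receptors it was -1.73 for Fzd6, -1.18 for Fzd3, -1.07 for Fzd9, -0.77 for Fzd8 and -0.53 for Fzd7. Wnt1 entered the test through its TGF-beta1 libraries only, and Fzd9 through those of TGF-beta1 and ADT. Wnt2 and Wnt4 entered through those of enzalutamide, TGF-beta1 and DMSO. The terms of these genes are given as a description. For Sfrp1 the term was -3.49. Wnt9a averaged 3.38 TPM with both agents and 8.68 TPM with enzalutamide, but 58.1 TPM with TGF-beta1 alone and 7.75 TPM with DMSO.

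The term was positive for 9 genes: 3.44 for Wnt7b, 3.14 for Rspo1, 1.74 for Sfrp2, 1.59 for Rspo2, 1.35 for Wnt5b, 1.18 for Fzd4, 0.98 for Sfrp4, 0.94 for Dkk2 and 0.50 for Fzd2 (log2). Wnt7b, Rspo1 and Sfrp2 entered the test through the libraries of both agents and ADT only, and Rspo2 through those of enzalutamide and DMSO. Their terms are given as a description. For Rspo2 the mean levels were 0.396 TPM with both agents and 0.424 TPM with TGF-beta1 alone, and 4.64 TPM with enzalutamide and 16.1 TPM with DMSO. Its reads were 24 with both agents and 21 with TGF-beta1 alone, and the part of this low level in the term was not tested. The Sfrp4 term was lost without DMSO replicate 1, enzalutamide replicate 2, TGF-beta1 replicate 2 or both-agents replicate 1 (log2 0.76 to 0.94, adjusted p = 0.0569 to 0.0679).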

How the results depend on the processing

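The counts of called genes among the 27 stayed within 1.5 times their value under every alternative run. Without the filter 41 Wnt genes were tested, and the called ones among the 27 were 11 with enzalutamide, 19 with TGF-beta1, 25 with both agents and 26 in ADT fibroblasts. Of all 26000 genes tested without the filter, 3335, 8029, 12029 and 12091 were called, in the same order. Fits with 1 library left out hold a group of 1 library, so their counts are not given here. Libraries of different groups that share a number did not deviate together (correlations from -0.03 to 0.09), so the numbers do not pair them. With a replicate block the counts among the 27 were 12 for enzalutamide, 20 for TGF-beta1, 24 for both agents and 25 for ADT fibroblasts. Of all 14828 genes, 3521, 7864, 10962 and 11062 were called there. For both agents the counts were 24 against enzalutamide, 24 against TGF-beta1 and 0 against ADT fibroblasts, and 21 for the interaction. Of all genes, 10962, 10589, 0 and 9399 were called in these. Such counts are no result about the Wnt genes in particular. Of 149 called gene results, 14 lost the call in at least 1 alternative, and those that matter stand beside the values above.

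Dividing the affected DMSO genes by 0.3 turned the sign for Apc to -0.031 with enzalutamide, -0.035 with TGF-beta1, -0.89 with both agents and -0.91 in ADT fibroblasts (log2). For Ctnnb1 it gave -0.14, -0.10, -0.065 and -0.076 in the same order, and 0.18 for the interaction. Median-ratio scaling turned Wnt5a with both agents to 0.023 and Dvl1 to 0.15. Over all genes, fitting only the compared groups called 2428 genes for enzalutamide in place of 3708. For both agents against ADT fibroblasts, 2 genes were called, against 14 without a filter, 6 with a pseudocount of 0.1 and 0 with the replicate block or with the compared groups alone. With 2 libraries per group, Wnt genes under 1 TPM were described but not tested.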
